A study of Apis mellifera with 48 samples.

Results

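Drones are the males of the honey bee (Apis mellifera). They develop from unfertilised eggs, do no work in the hive and leave it in the afternoon on flights whose aim is mating. The mushroom bodies are paired centres of the insect brain that receive sensory input and take part in learning and memory, and transcript levels there can be compared between bees at rest and bees about to fly. The comparison described here was kept within a single colony, so that all bees came from 1 hive. Its members are the 14 drones of colony 3 among the 48 bees of the series. They were chosen by the sex, collection time and colony in the labels, by a rule that uses no measured value.

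The active group held 8 drones taken at 3 pm, shortly before flight. The inactive group held 6 drones taken at 9 am. Per the labels, behavioural observation and marking served to recognise active bees, and the queens of the 3 colonies had mated naturally and were not related to each other. Each library was polyadenylated RNA from the mushroom bodies of 1 flash-frozen bee, so the replicates are separate bees of 1 hive. Activity and time of day cannot be told apart, since every active bee was taken at 3 pm and every inactive bee at 9 am. The labels give no age. For comparison the series also holds 10 drones of colonies 1 and 2 (4 active, 6 inactive) and 24 workers (12 active, 12 inactive), the females that forage. Bees are numbered below as in the labels, so that active drones 5 to 12 and inactive drones 7 to 12 are those of colony 3.

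The files give genes by identifier and pair none with a name. Of the 15314 identifiers, 0 were found in the table of names at hand. Gene functions are therefore not described, the label of the tissue could not be checked against marker genes, and only the genes with the lowest p-values are given by identifier. In bulk tissue, fewer cells of a type and less RNA per cell cannot be told apart.

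Reads in genes averaged 12.3 ± 2.25 M (SD, n = 8; M for 1e6 reads) in active drones and 17.0 ± 4.01 M (n = 6) in inactive drones of colony 3 (two-sided exact permutation test, p = 0.0167, adjusted over 6 library measures 0.0999). The other 5 measures, among them the number of genes detected and the shares of reads given to no gene, had exact permutation p-values between 0.0743 and 0.794. The bee codes of colony 3 carry a letter, W in 3 active and 2 inactive drones and Y in 5 active and 4 inactive drones. The labels do not explain the letter. In a principal component analysis of the 14 bees, the first component held 26.1% of the variance and activity accounted for 17.6% of it. Its Pearson r with gene reads over the 14 bees was 0.59, given as a description. The second held 15.2%, of which pool accounted for 63.9%, the letter for 62.4% and activity for 11.5%, each taken alone. Pool has more levels than the letter or activity, which by itself raises its share of any component. Of the third, pool accounted for 40.9%, the letter for 30.9% and activity for 29.9%, again each taken alone.

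More genes were called higher than lower in active drones of colony 3, though this excess depended on the model, as given further on. Of 10866 genes tested, 202 were higher and 97 lower in active drones (edgeR quasi-likelihood test, Benjamini-Hochberg adjusted p below 0.05), which is 2.75% of the genes tested, 1.86% higher and 0.893% lower. The median change was 1.86-fold among the higher genes (log2 fold change 0.89) and -0.59 on the log2 scale among the lower ones, against 0.02 over all genes tested. At least 2-fold changes were called for 91 higher and 10 lower genes, and at least 4-fold changes for 23 higher and 0 lower genes. The log2 fold changes of the called genes ran from -1.83 to 4.79.

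Levels are given below in CPM, counts per 1e6 reads in genes, on 1 scale for all 48 bees. The plot of change against level shows how the called genes lie over that range.

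**Figure D1:**
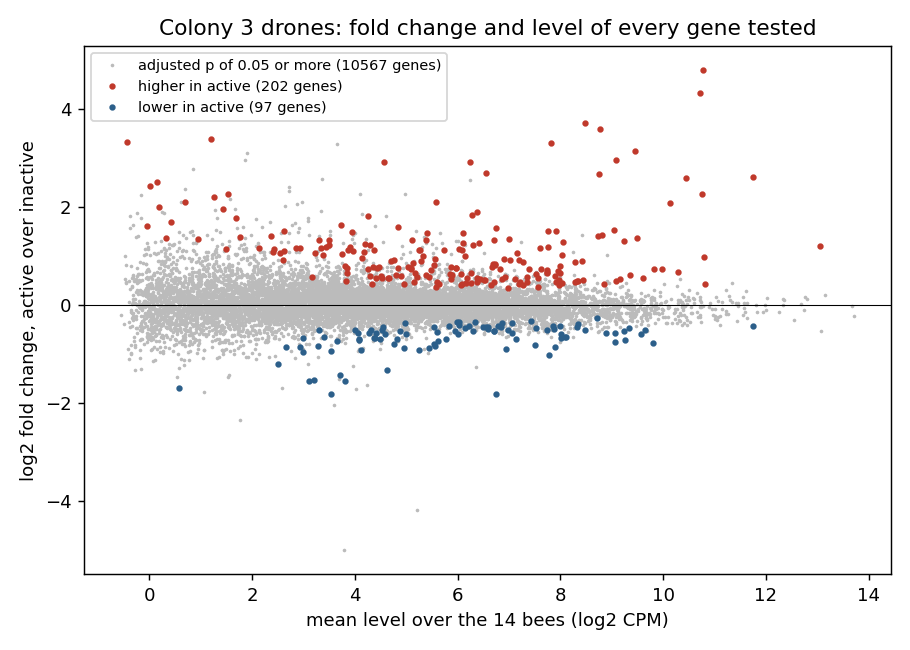
Each point is 1 of the 10866 genes tested in colony 3 drones, with its mean level over the 14 bees (log2 CPM) on the x axis and the log2 fold change, active over inactive, on the y axis. Red points are the 202 genes higher and blue points the 97 genes lower in active drones at an adjusted p below 0.05, and the genes with the largest called changes lie above the zero line.

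Calls were commoner among abundant transcripts, for which a test of counts also has more power. The part of power in this was not tested. Of the 1518 genes with a mean of at least 7 log2 CPM, 4.41% were higher and 1.98% lower in active drones. Of the 4352 genes from 4 to 7 log2 CPM, 2.09% were higher and 1.15% lower. Of the 3952 genes from 1 to 4 log2 CPM, 0.886% were higher and 0.405% lower. Of the 1044 genes below 1 log2 CPM, 0.862% were higher and 0.0958% lower. The median log2 fold change of the higher genes was 0.74 in the top band and 1.15 in the band from 1 to 4 log2 CPM. The median level of the higher genes was 76.3 CPM in active drones, against 41.4 CPM in inactive ones. That of the lower genes was 52.0 CPM in active drones, against 75.4 CPM in inactive ones. Over all genes tested it was 18.9 CPM in active drones, against 18.7 CPM in inactive ones.

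In 97 of the 202 higher genes (48.0%) every active drone lay above every inactive drone, and in 18 of the 97 lower genes (18.6%) every active drone lay below. Over all genes tested, 0.939% had every active drone above and 0.248% every active drone below. The same bees had served to call the genes, and a call favours groups that lie apart, so these shares are only a description. No called gene was without reads in a whole group.

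GB50609 had the lowest p among the higher genes. Its lowest, median and highest values were 1559, 2081 and 5966 CPM in the 8 active drones, against 72.3, 99.3 and 176 CPM in the 6 inactive drones. The groups were far apart, as the lowest active drone had 8.86 times the CPM of the highest inactive drone. Active drones 5 and 6, both with the letter W, had 5966 and 5751 CPM, and none of the other 6 exceeded 2604 CPM. Its log2 fold change was 4.79 ± 0.41 (SE, edgeR adjusted p = 4.04e-05), or 27.7-fold, and it was the largest among the called genes.

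GB46774 was next by p and less abundant. It had 434, 556 and 1185 CPM (lowest, median, highest) in active drones, against 78.7, 108 and 144 CPM in inactive drones. Active drone 5 was again the highest, and all 8 active drones lay above the inactive range. Its log2 fold change was 2.66 ± 0.25 (SE, edgeR adjusted p = 4.76e-05), or 6.34-fold.

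GB44991 had the lowest p among the lower genes. It had 111, 147 and 196 CPM in active drones, against 252, 296 and 388 CPM in inactive drones. The groups did not overlap, and active drone 7 came nearest to the inactive bees. Its log2 fold change was -1.02 ± 0.14 (SE, edgeR adjusted p = 0.00111). GB49132, a less abundant transcript, had 15.2, 17.8 and 19.2 CPM in active drones, against 22.9, 29.1 and 34.5 CPM in inactive drones. Its 8 active bees were close together and all below the inactive ones. Its log2 fold change was -0.69 ± 0.10 (SE, edgeR adjusted p = 0.00111).

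**Figure D2:**
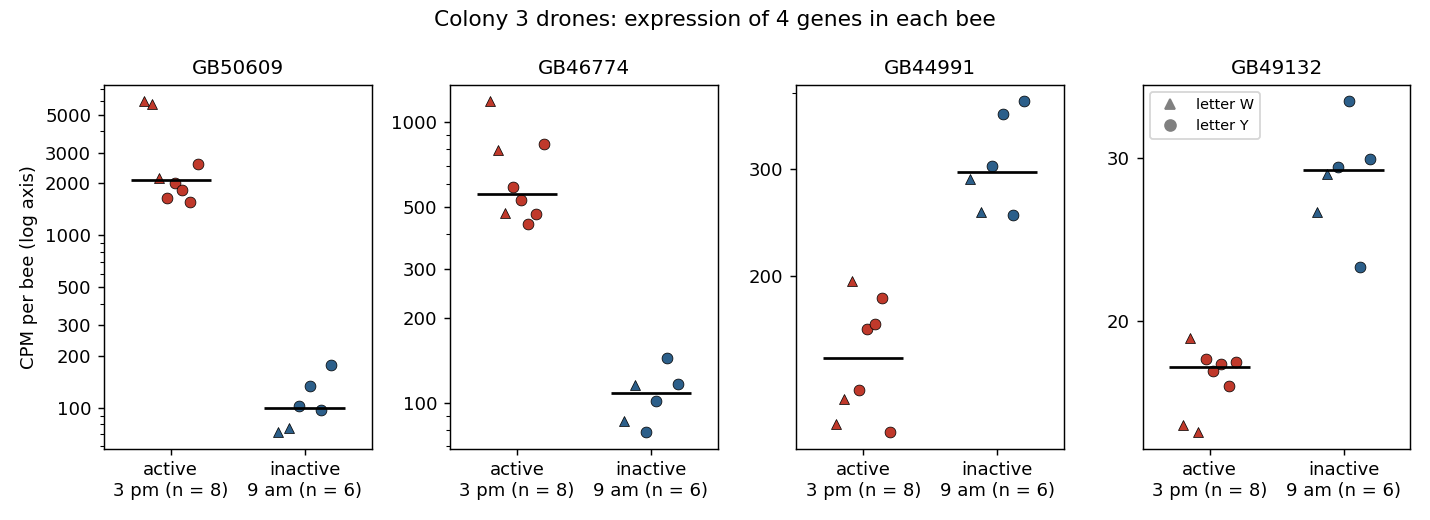
CPM (log axis, a scale of its own for each gene) of GB50609, GB46774, GB44991 and GB49132 in each of the 8 active and 6 inactive drones of colony 3. Triangles are bees with the letter W, circles bees with the letter Y, and the line is the group's median; the groups do not overlap in any of the 4 genes.

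As the groups did not overlap in these 4 genes, any part of the bees had to give the same direction. This holds for both letters and for each of the 5 sequencing pools that held drones of both groups. GB50609 had a log2 fold change of 5.96 in the 5 bees with W and 3.96 in the 9 bees with Y, and within pools its log2 difference ran from 3.93 to 5.52. GB44991 had -0.90 in W and -1.09 in Y, and -1.76 to -0.70 within pools. Of the called genes, 188 of the 202 higher ones were higher in each of these pools, and 75 of the 97 lower ones were lower in each. Over all genes tested, 6.13% were higher and 6.51% lower in every one of these pools. The same bees had served to call the genes.

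A fit of the 9 bees with Y alone called 30 genes as higher and 1 as lower, and the 5 bees with W had no part in it. In the W bees all 30 had a positive log2 fold change, with a median of 1.85, and the lower gene (GB44991) had a negative one. Of the 10676 genes fitted in both sets, 51.9% were positive in the W bees. The fit of the W bees alone called 5 genes, all higher, and all 5 were positive in the Y bees with a median of 2.31. The split by letter was chosen after the data had been seen.

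The 23 genes that were at least 4-fold higher included abundant transcripts. Their mean in active drones ran from 1.03 to 5224 CPM with a median of 360 CPM, against a median of 37.3 CPM in inactive drones. In 14 of them the active mean was at least 100 CPM, and in 7 it was below 10 CPM. In 18 of the 23 the groups did not overlap. Together they took up 1.22% to 4.35% of the gene reads of an active drone, with a median of 1.70%, against 0.269% to 0.348% of those of an inactive drone, with a median of 0.2995%. All 202 higher genes together took up 4.54% to 9.59% in active and 2.40% to 2.83% in inactive drones, and the 97 lower genes 1.19% to 1.74% in active and 1.77% to 2.32% in inactive drones. These shares describe genes chosen from the same bees.

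**Figure D3:**
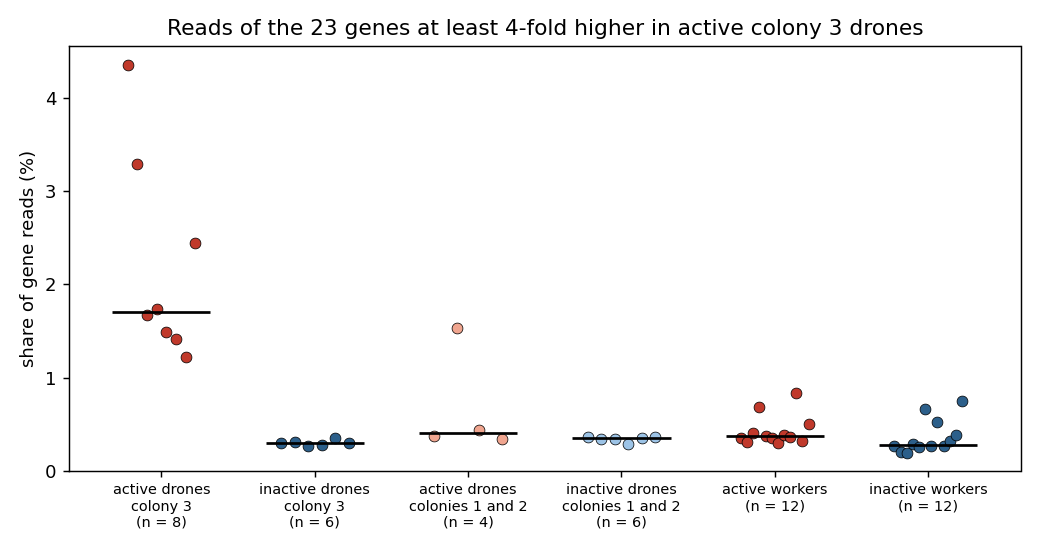
Share of all gene reads (%) taken up by the 23 genes that were at least 4-fold higher in active colony 3 drones, in each of the 48 bees by group, with the line at the group's median. Active colony 3 drones have 1.22% to 4.35% and inactive ones 0.269% to 0.348%, and among the other drones active drone 2 stands apart at 1.53%.

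The active drones differed among themselves in how high these genes were. Active drone 5 had the highest value in 12 of the 23 genes and active drone 6 in 5 of them. Active drones 5, 6 and 12 were among the top 3 in 17, 19 and 19 of the 23, and active drone 11 was the lowest in 11. The share of gene reads followed the same order, with 4.35%, 3.30% and 2.45% in active drones 5, 6 and 12 and 1.22% in active drone 11. Depth ran the other way. Active drones 5, 6 and 12 had the lowest totals of the 8, at 9.03 M, 9.73 M and 11.2 M gene reads, and active drone 11 had the highest, at 15.2 M. The part of depth in this order was not tested. Across the 8 active drones the 23 genes had a median pairwise Pearson r of 0.46, against -0.003 over all pairs of genes tested and 0.02 for the 23 genes across the 6 inactive drones. These values describe genes within 1 set of libraries that share their depth and scaling. The median SD of log2 CPM among the 23 genes was 0.77 across active drones, against 0.53 across inactive drones. Over all genes tested it was 0.31 across active drones, against 0.33 across inactive drones. For the 202 higher genes the SD was larger among active drones in 149 (73.8%), against 44.1% of all genes tested.

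The lower genes showed the reverse spread, and inactive drone 11 stood closest to the active bees. The SD of log2 CPM was larger among active drones in 32 of the 97 lower genes. Their mean level over the list ran from 5.31 to 5.79 log2 CPM in active drones, against 5.86 in inactive drone 11 and 6.19 to 6.57 in the other 5 inactive drones. For the higher genes inactive drone 11 was within the other inactive bees, at 5.08 log2 CPM where the group ran from 5.05 to 5.20 and active drones from 5.76 to 6.38. Across the 6 inactive drones the lower genes had a median pairwise r of 0.69, against 0.37 across the 8 active drones. Over all genes tested it was -0.001 across inactive and -0.003 across active drones.

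Leaving out inactive drone 11 moved the calls the most. Without it 731 genes were called, 313 higher and 418 lower, and 285 of the 299 genes were among them. Without inactive drones 9, 10 or 12 the count was 153, 144 or 174, and without active drones 8 or 12 it was 192 or 178. GB50609, GB46774, GB44991 and GB49132 passed in all 14 fits that left out a bee.

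The number of called genes also moved with the model. With a term for sequencing pool 71 genes passed, 64 higher and 7 lower, of which 70 were among the 299. DESeq2 called 691 (341 higher, 350 lower), and a model of all 48 libraries called 592 (290 higher, 302 lower), so that the excess of higher genes was absent in both. After every library was thinned to the same depth 293 genes were called, 270 of them shared.

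The drones of colonies 1 and 2 gave bees of the same sex that had no part in these calls. Of the 202 genes higher in colony 3, 195 could be fitted there, and 185 of these (94.9%) had a positive log2 fold change, with a median of 0.37 where the same genes had 0.86 in colony 3. Of the 97 lower genes, 64 (66.0%) had a negative one, with a median of -0.13 against -0.59 in colony 3. Both lists were chosen by their change in colony 3. That choice alone makes the change there look larger, so a weaker response elsewhere is not read from these medians. Over all genes tested in colony 3 and fitted there, 46.2% were positive and 53.8% negative, with a median of -0.02. Of the 23 genes at least 4-fold higher in colony 3, 18 could be fitted and 17 were positive, with a median log2 fold change of 1.16. The values of these 18 genes rested on active drone 2 of colony 1. Without it 11 of the 18 were positive, with a median of 0.30. Of the higher genes 159 of 196 (81.1%) were then positive, with a median of 0.23, where 46.8% of all genes were positive. Of the 97 lower genes 67 (69.1%) were then negative, with a median of -0.12. Leaving out a bee here was added after the data had been seen. With 4 active drones, 0% of the 10665 genes passed in these colonies with edgeR (520 at an unadjusted p below 0.05), 1 with limma-voom and 32 with DESeq2.

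**Figure D4:**
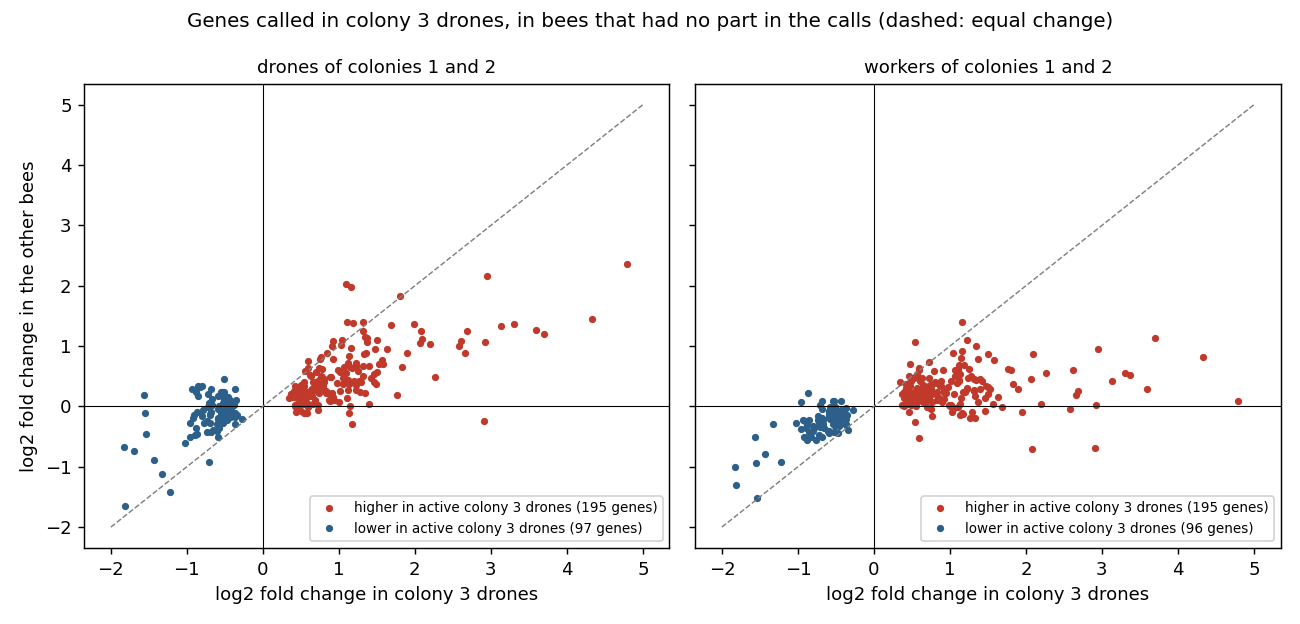
Log2 fold change, active over inactive, of genes called in colony 3 drones (x axis) and in bees that had no part in the calls (y axis), the drones of colonies 1 and 2 on the left and the workers of colonies 1 and 2 on the right. Red points were higher and blue points lower in active colony 3 drones, and most points lie on the same side of zero in both sets but closer to zero than the dashed line of equal change. The genes were chosen by their change in colony 3, so nothing is read from the distance to that line.

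The difference between the response in colony 3 and that in colonies 1 and 2 was itself tested over all 24 drones. It passed for 0% of the 11310 genes with edgeR (781 at an unadjusted p below 0.05, smallest adjusted p 0.402), for 0 genes with limma-voom and for 19 with DESeq2. For GB50609 the log2 difference came to 2.40 ± 0.78 (SE, edgeR adjusted p = 0.533). Among the active drones of colonies 1 and 2, active drone 2 (colony 1) had 2222 CPM of GB50609, within the range of the active drones of colony 3. The other 3 had 125 to 157 CPM, within the 42.0 to 192 CPM of the 6 inactive drones of these colonies. For GB46774 the difference was 1.75 ± 0.38 (edgeR adjusted p = 0.402), and active drone 2 had 347 CPM where the other 3 had 119 to 138 CPM. For GB44991 it was -0.44 ± 0.23 (edgeR adjusted p = 0.737). Without active drone 2, 7 genes passed, and in 6 of these the colony 3 response was the more positive. In the 23 remaining fits that left out a drone 0 genes passed.

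Workers were compared as bees of the other sex. Of these, 20 came from colonies 1 and 2, so sex and colony cannot be fully told apart here. The response of colony 3 drones minus the response of the 24 workers passed for 47 of 11490 genes (0.409%), of which 40 (0.348%) were more positive in colony 3 drones and 7 (0.0609%) more negative. The 40 genes had a median log2 change of 1.83 in colony 3 drones and -0.04 in workers. Of them 33 were among the 202 higher genes, a list of 1.86% of the genes tested in colony 3. The 7 genes had medians of -0.91 and 0.09, and 6 were among the 97 lower genes, a list of 0.893%. The same colony 3 drones entered both fits, and the genes were called by the gap between these changes. Nothing is therefore read from the medians or the overlaps. Without inactive drone 11 the more negative genes numbered 28. The count was 39 against the workers of colonies 1 and 2 alone, 100 with DESeq2, 36 with limma-voom and 75 without inactive drone 11.

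GB54219 had the lowest p of these. It had 1331, 1732 and 3922 CPM (lowest, median, highest) in active and 335, 364 and 383 CPM in inactive drones of colony 3, against 307, 348 and 694 CPM in active and 313, 359 and 889 CPM in inactive workers. All active drones of colony 3 lay above every worker and every inactive drone of the colony. This did not hold for active drones at large. In colonies 1 and 2 active drone 2 had 1610 CPM, but the other active drones had 311 to 367 CPM, within the range of the workers. Between colony 3 and the other drones the responses differed by 1.54 ± 0.45 (SE, edgeR adjusted p = 0.533). Between colony 3 drones and workers the log2 difference of the responses came to 2.62 ± 0.29 (SE, edgeR adjusted p = 6.37e-07). GB46774 came next, at 2.54 ± 0.29 (edgeR adjusted p = 1.06e-06), with 102, 133 and 196 CPM in active and 80.6, 112 and 272 CPM in inactive workers. The active drones of colony 3, at 434 CPM or more, were above all of these workers.

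GB51815 and GB47202 had the lowest p among the genes with the more negative response in colony 3 drones. GB47202 had 44.0, 71.6 and 82.1 CPM in active and 84.3, 93.9 and 111 CPM in inactive drones of colony 3, against 75.4, 81.8 and 95.1 CPM in active and 65.0, 81.8 and 89.7 CPM in inactive workers. The drone groups did not overlap and the worker groups did. Its difference was -0.66 ± 0.13 (SE, edgeR adjusted p = 0.00492), and it did not pass with a replicate block (edgeR adjusted p = 0.074). The fit with that block left out active drones 5 and 6 of colony 3. GB51815 rested on a few bees. Inactive drones 7 and 11 had 31.2 and 147 CPM, the other 4 inactive drones at most 1.70 CPM and the active drones at most 3.02 CPM, while among workers active worker 1 had 70.5 CPM and the other 23 at most 5.39 CPM. Its fitted difference was -9.91 ± 1.90 (SE, edgeR adjusted p = 0.00415) and it did not pass with limma-voom (adjusted p = 0.541) or with pool terms (edgeR adjusted p = 0.0688).

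The lists of colony 3 were also followed in the 20 workers of colonies 1 and 2, which share neither bee nor hive with these drones. Of the 202 higher genes 195 could be fitted, and 172 (88.2%) had a positive log2 fold change with a median of 0.25. Of the 97 lower genes 96 could be fitted, and 89 (92.7%) had a negative one with a median of -0.23. Over all genes 49.3% were positive and 50.7% negative, with a median of -0.004. In these workers 15 of the higher genes and 6 of the lower genes passed in the same direction, where 1.3% of all genes tested passed, 0.652% of the 10579 genes tested passed as higher and 0.643% as lower. Of the 23 genes at least 4-fold higher, 19 could be fitted, and these had a median of 2.91 in colony 3 drones and 0.42 in workers, or 0.25 in workers without active worker 10. The number of genes that passed in these workers moved between 14 and 260 when 1 worker was left out, and in 15 of the 20 such fits by over 1.5 times, so the counts of passing genes are not firm. In the test of the difference over all 24 workers, 16 of the 23 passed as more positive in colony 3 drones, where 0.348% of all genes did. The 23 had been chosen for their change in these drones, so nothing is read from that count or from their larger median there.

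The bees were also placed by the mean level of both lists.

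**Figure D5:**
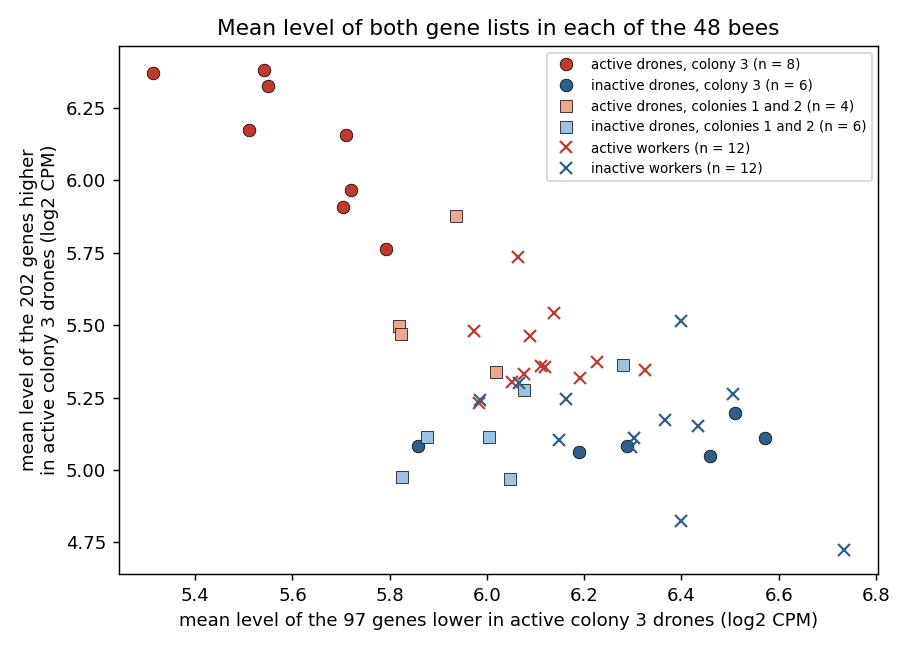
Mean level (log2 CPM) of the 97 genes lower in active colony 3 drones (x axis) and of the 202 genes higher in them (y axis) in each of the 48 bees, with filled circles for colony 3 drones, squares for the other drones and crosses for workers, red for active and blue for inactive bees. Active colony 3 drones lie at 5.76 to 6.38 and inactive ones at 5.05 to 5.20 on the y axis, and the 4 active drones of colonies 1 and 2 lie between 5.34 and 5.88.

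Bee by bee, the mean level of the higher genes was 5.34 to 5.88 log2 CPM in active and 4.97 to 5.36 in inactive drones of colonies 1 and 2. Active drone 2 was the highest of them and the only one within the 5.76 to 6.38 log2 CPM of active colony 3 drones. In workers of colonies 1 and 2 it was 5.23 to 5.74 in active and 4.72 to 5.52 in inactive bees, with overlap. The mean level of the lower genes was 5.82 to 6.02 log2 CPM in active and 5.83 to 6.28 in inactive drones of colonies 1 and 2, and the groups overlapped there too. In inactive drones of colony 3 the same list reached 6.57 log2 CPM.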

How the data were processed

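Each bee has 1 file of raw read counts, deposited by the authors, with 15314 gene identifiers and 5 summary rows, which were left out here. The submitters' processing notes list CASAVA (1.8.2), HTSeq (0.5.4), TopHat2 (2.0.10), Trimmomatic (0.30), edgeR (3.4.2) and SAMtools, without their roles. The library kit keeps strand, per the labels' protocols. How HTSeq treated strand and overlaps is not given in the sources used here, so overlapping, antisense or near-identical genes are uncertain. Reads in genes numbered 9.03 M to 22.4 M per colony 3 drone (M for 1e6), which limits the precision for weakly expressed genes.

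The 14 libraries were fitted with the edgeR 4.0.16 quasi-likelihood test (R 4.3.3) after filterByExpr by group and TMM scaling, with no colony term. Differences of responses were interaction terms, over all 24 drones or over the 14 drones and 24 workers. Adjusted p-values are Benjamini-Hochberg over all genes of a fit, with a threshold of 0.05, and a standard error is the size of the log2 fold change divided by the root of F. CPM (counts per 1e6 reads in genes) were scaled by TMM over all 48 libraries, and log2 CPM has a prior count of 2. Alternatives used DESeq2 1.42.0 and limma 3.58.1. The fit of colony 3 and both interaction fits were first run on simulated counts. Those counts held no effect of pool or letter, so they do not bear on how the calls moved with the model.

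The planned gene and marker lists matched no identifier and were not used. The rule for named genes took the 2 lowest p-values per direction and comparison, among called genes whose mean was 1 log2 CPM or more. Members, rules and lists were chosen with earlier results of these data known.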

Additional observations from a re-analysis of the deposited data

Results flagged for a closer look

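Values of 56 groups of bees were looked at for a single bee that stood apart, and 9 stood out. All 9 were groups of drones. Chance gives about 1 in 20 for a single group. The groups share bees and genes, so no excess over that rate is read from the 9. Active drone 2 of colony 1 stood above the other 3 active drones of colonies 1 and 2 in 4 of them. It had 2220 CPM of GB50609 (next 157 CPM), 347 CPM of GB46774 (next 138 CPM), 1610 CPM of GB54219 (next 367 CPM) and 1.53% of its gene reads in the 23 genes at least 4-fold higher in colony 3 (next 0.439%). Inactive drone 3 of colony 1 was the highest of its group in GB46774 at 149 CPM, next to 104 CPM. Inactive drone 4 of colony 1 had the lowest share of reads in the 23 genes, 0.292%, next to 0.337%. GB51815 had a bee apart in 3 groups, active drone 8 of colony 3 at 3.02 CPM (next 0.998 CPM), inactive drone 11 of colony 3 at 147 CPM (next 31.2 CPM) and active drone 3 of colony 2 at 57.1 CPM (next 0.780 CPM). High values were not confined to active bees. Among the inactive workers of colonies 1 and 2, inactive worker 6 had 1163 CPM of GB50609 (next 418 CPM). It also had 272 CPM of GB46774 (next 174 CPM) and 889 CPM of GB54219 (next 480 CPM).

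The response of colony 3 drones was tested against that of workers in 1 fit, and 47 genes differed. Among the genes given by identifier that passed, the difference was 4.85 on the log2 scale for GB50609, 2.62 for GB54219, 2.54 for GB46774, -0.66 for GB47202, -0.86 for GB44991 and -9.91 for GB51815. GB49132 did not pass, at -0.47 (edgeR adjusted p = 0.193).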

How the results depend on the processing

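The count of 299 genes called in colony 3 drones (202 higher, 97 lower) stayed within 1.5 times with size factors, either other filter, limma-voom, thinning and a letter term. It was 691 (341 higher, 350 lower) with DESeq2, 592 (290 and 302) in 1 model of all 48 libraries, 71 (64 and 7) with a pool term, 31 (30 and 1) in bees with Y alone and 5 (5 and 0) in bees with W alone, which are fewer samples. Leaving out 1 bee gave 144 to 731 genes (115 to 313 higher, 29 to 418 lower). For the other shifts the cause was not tested.

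Drones of both groups share the numbers 7 to 12 in their titles. Bees with the same number had correlations of their deviations between -0.06 and 0.33, over 0.1 in 3 of 6 pairs, and 4 of 12 bees correlated best with their own number, so the number was not taken as a pairing. The replicate block, a term for each number, kept only bees whose number occurs in both groups. Active drones 5 and 6 of colony 3 were therefore left out. In the fit against the other drones, inactive drones 5 and 6 of colonies 1 and 2 were left out too. With the replicate block 55 genes passed (50 higher, 5 lower) in colony 3, 1 (0 higher, 1 lower) for colony 3 against the other drones and 25 (24 and 1) for colony 3 drones against workers. The part of the fewer bees in these counts was not tested.

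For colony 3 against the other drones DESeq2 called 19 (7 and 12), and leaving out 1 drone gave 0 to 7 (0 to 6 higher, 0 to 1 lower). Against workers, the count of 47 (40 and 7) was 100 (76 and 24) with DESeq2; the more negative genes were 4 with limma-voom and 12 after thinning. Leaving out 1 bee gave 37 to 75 (32 to 55 higher, 5 to 28 lower). The highest of the counts of more negative genes came without inactive drone 11.

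In drones of colonies 1 and 2, DESeq2 called 32 (30 and 2) and limma-voom 1 (1 higher), against 0. In workers of colonies 1 and 2, the 137 genes (69 and 68) became 361 (159 and 202) with DESeq2 and 50 (16 and 34) with no filter; size factors gave 36 higher and limma-voom 43 lower. Leaving out 1 worker gave 14 to 260 (3 to 69 higher, 10 to 191 lower), the lowest total without active worker 5 and the highest without inactive worker 10. Leaving out 1 of the other drones gave 0 in all 10 fits. The share of higher genes with the same sign with DESeq2 was 86.9% in the other drones (edgeR 94.9%) and 81.8% in workers (edgeR 88.2%). Leaving out 1 bee, it was 81.1% to 94.4% in the other drones, the lowest without active drone 2, and 82.7% to 90.8% in workers.

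None of the named genes changed sign in any alternative. GB46774 and GB44991 in the W bees, GB49132 in the W and in the Y bees, GB51815 with limma-voom, pool terms or the block, and GB47202 with the block did not pass.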

Other observations

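Colony 3 also held 4 workers, 2 active and 2 inactive, from the same hive as the 14 drones. With 2 bees a group their values are given without a test. Of the 202 genes higher in active colony 3 drones, 120 (59.4%) had a higher mean log2 CPM in the active workers, with a median difference of 0.11. Of the 97 lower genes, 28 (28.9%) had a lower mean, with a median difference of 0.11. Over all genes tested, 47.7% were higher and 52.3% lower in these workers, with a median of -0.02. GB50609 had 139 and 161 CPM in the active and 199 and 375 CPM in the inactive workers of colony 3, and GB44991 had 334 and 382 CPM in the active and 270 and 342 CPM in the inactive ones.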
